A study of Mus musculus with 12 samples.

Results

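Cell cycle and DNA replication genes are a list of 40 genes, 16 that act in S phase, when DNA is copied, and 24 that act in mitosis, when chromosomes and cells divide. They were taken by name from a table of 24452 genes measured by RNA sequencing of mouse brown adipose tissue. All 40 were in the table. All 16 S phase genes and 18 of the 24 mitosis genes, 34 in all, had a mean level of at least 0.5 RPKM (reads scaled to transcript length and library total) over the 12 libraries and entered the main test. Bub1, Aurkb, Birc5, Ttk, Cenpe and Cenpf fell below that level and are described without it.

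The tissue came from male mice of strain C57BL/6J Bom, 12 weeks of age, housed at 30 °C, in 4 groups of 3 libraries. ERRKO_CL and ERRKO_PBS are ERRαγAd-/- mice, whose floxed ERRα and ERRγ alleles were deleted by a Cre recombinase under the adiponectin promoter, which is active in adipocytes. WT_CL and WT_PBS are floxed littermates without Cre, so all 4 groups carried floxed alleles. The CL groups received CL316,243, which stimulates β3-adrenergic receptors, at 1 mg/kg each day for 10 days and the PBS groups received saline, with tissue taken 24 h after the last dose.

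Brown fat burns fuel to make heat, and ERRα and ERRγ are nuclear receptors that drive its oxidative genes. Mature brown adipocytes rarely divide, and β3-adrenergic stimulation is known to make precursor and endothelial cells of the depot proliferate. Transcripts of the S phase genes build up when E2F factors are released from the retinoblastoma protein, and those of the mitosis genes build up later, largely through CCAAT boxes and CHR elements (cell cycle genes homology regions) in their promoters. In RNA from whole tissue, fewer dividing cells and less of a transcript per dividing cell cannot be told apart.

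Libraries held 12468001 to 12954186 recovered reads in ERRKO_CL, 12822176 to 13263567 in ERRKO_PBS, 8979123 to 9559239 in WT_CL and 8478310 to 9727167 in WT_PBS. Esrra, the gene of ERRα, had 5.25 to 8.89 scaled RPKM in the ERRKO libraries and 41.6 to 83.1 in the WT libraries. Scaled RPKM are the deposited values after median-of-ratios scaling, which centres the typical gene's change on 0. On the deposited scale itself the median of all 12249 tested genes stood higher by 0.63 (log2) in ERRKO_CL than in WT_CL and by 0.53 in ERRKO_PBS than in WT_PBS, and it differed by -0.26 for CL316,243 in WT, by -0.16 in ERRKO and by 0.09 for the interaction. Counts of calls are therefore given on the deposited scale as well, for members in every comparison and for other lists where stated. Whether the 3 libraries of a group come from separate animals is not stated, and the p-values cover only the spread among these libraries. Where groups are said not to overlap, that rests on the same libraries as the tests and adds no support to a call. The summed level of 10 skeletal muscle markers varied most, at 144 to 1142 scaled RPKM in ERRKO_CL, 74.0 to 2077 in ERRKO_PBS, 15.9 to 268 in WT_CL and 10.6 to 212 in WT_PBS, with Myog, a marker of muscle precursors, at 0 to 0.239. The 8 brown adipocyte markers summed to 18370 to 18631 in ERRKO_CL, 10867 to 14893 in ERRKO_PBS, 19439 to 20861 in WT_CL and 11413 to 16812 in WT_PBS. Among them Ucp1, the uncoupling protein of heat production, had 27.6 to 54.4 in ERRKO_CL, 3.26 to 6.37 in ERRKO_PBS, 1836 to 2963 in WT_CL and 315 to 538 in WT_PBS. Adipoq, the adiponectin gene, had 1665 to 1797, 1133 to 1710, 689 to 791 and 812 to 1326 in the same order of groups. In the main test 3 of these 8 markers were higher and 2 lower in ERRKO_CL than in WT_CL. In ERRKO_PBS against WT_PBS 2 were higher and 2 lower. On the deposited scale 6 were higher and 2 lower in both comparisons, against 70.5% and 66.3% higher over all genes.

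Under CL316,243, 12 of 18 mitosis genes and 7 of 16 S phase genes were lower in ERRKO than in WT brown fat, and 1 S phase gene was higher. In all, 19 of the 34 tested members were lower and 1 was higher in ERRKO_CL than in WT_CL by limma (Benjamini-Hochberg adjusted p under 0.05 over all genes tested). The background over all genes tested was 21.6% lower and 19.8% higher. The 7 S phase genes that fell were Mcm6, Rrm1, Rrm2, Tyms, Tk1, Ccne1 and Ccne2. The 12 mitosis genes that fell were Mki67, Top2a, Ccna2, Ccnb2, Cdc20, Bub1b, Plk1, Kif11, Tpx2, Prc1, Pbk and Ube2c. The median log2 change was -0.46 for the 16 S phase genes and -0.67 for the 18 mitosis genes, beside 0.01 for all genes tested. On the deposited scale the split of the S phase genes turned, with 2 lower and 6 higher and a median of -0.01, while 7 mitosis genes were lower and 1 higher with a median of -0.27. The background there was 6.62% lower and 70.5% higher, and all genes had a median of 0.63.

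Among the genes that supply deoxynucleotides, Rrm1, Tk1, Rrm2 and Tyms were called lower. Rrm1, the large subunit of ribonucleotide reductase, had 2.29, 3.00 and 2.95 scaled RPKM in ERRKO_CL, against 7.59, 6.28 and 7.57 in WT_CL. All ERRKO_CL libraries lay below all others of the study, and the log2 change against WT_CL was -1.24 ± 0.11 (SE, adjusted p = 2.9e-06). Tk1, the thymidine kinase that salvages thymidine for DNA synthesis, had 0.180, 0.380 and 0.567 scaled RPKM in ERRKO_CL and 2.14, 1.21 and 1.42 in WT_CL. Its groups did not overlap, and it fell by 1.25 ± 0.34 on the log2 scale (adjusted p = 0.011), on 5, 10 and 15 reads in ERRKO_CL and 36, 20 and 23 in WT_CL. The small reductase subunit Rrm2 averaged 0.726 ± 0.215 scaled RPKM in ERRKO_CL and 1.81 ± 0.659 in WT_CL (SD, n = 3 each), a log2 change of -0.89 ± 0.25 (adjusted p = 0.013). Tyms, which makes thymidylate, averaged 0.446 ± 0.0663 in ERRKO_CL and 1.03 ± 0.501 in WT_CL (SD, n = 3 each), with a log2 change of -0.64 ± 0.22 (adjusted p = 0.037). The call of Rrm2 was lost without ERRKO_CL replicate 2 (adjusted p = 0.0502) or WT_CL replicate 1 (0.059). That of Tyms was lost without any of the ERRKO_CL replicates (0.067 to 0.107) or WT_CL replicate 1, where its change was -0.40 (0.153).

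Cyclins E, which drive entry into S phase with Cdk2, were lower as well. Ccne1 had 1.21, 0.692 and 1.19 scaled RPKM in ERRKO_CL, against 1.62, 3.10 and 2.54 in WT_CL, without overlap. Its log2 change was -0.92 ± 0.21 (adjusted p = 0.0043), and that of Ccne2 was -0.56 ± 0.18 (adjusted p = 0.027). Ccne2 shares 17.4% of its exon bases with Ints8, and its call was lost without ERRKO_CL replicate 2, WT_CL replicate 1 or WT_CL replicate 3 (adjusted p = 0.118, 0.067 and 0.101).

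E2f1 moved the other way. This transcription factor of S phase genes had 2.03, 2.00 and 1.67 scaled RPKM in ERRKO_CL and 1.23, 0.644 and 0.653 in WT_CL. The groups did not overlap, and E2f1 rose by 0.86 ± 0.19 on the log2 scale (adjusted p = 0.0032). It was the only member called higher in this comparison on the median-ratio scale.

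The MCM genes, which encode the replicative helicase, did not move as a unit. Mcm6 had 0.278, 0.353 and 0.537 scaled RPKM in ERRKO_CL, against 1.16, 0.825 and 0.856 in WT_CL, and fell by 0.70 ± 0.19 (adjusted p = 0.0099). Among the others Mcm2, Mcm3 and Mcm5 had log2 changes of -0.36 ± 0.16, -0.19 ± 0.15 and -0.55 ± 0.22, and none passed the test (adjusted p = 0.081, 0.323 and 0.060). Mcm4 and Mcm7 had positive changes of 0.29 ± 0.11 and 0.21 ± 0.11 that did not pass either (adjusted p = 0.057 and 0.138), but on the deposited scale they were called higher, at 0.88 (adjusted p = 2.1e-05) and 0.89 (adjusted p = 1.4e-05). Nor did those of the helicase loaders Cdc6, at -0.36 ± 0.17, and Cdt1, at 0.15 ± 0.19 (adjusted p = 0.108 and 0.566), although Cdt1 was called higher on the deposited scale, at 0.58 (adjusted p = 0.014). Pcna, the sliding clamp of the polymerases, averaged 24.2 ± 1.57 scaled RPKM in ERRKO_CL and 29.0 ± 4.48 in WT_CL (SD, n = 3 each), and its change of -0.25 ± 0.13 did not pass the test (adjusted p = 0.161).

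**Figure D1:**
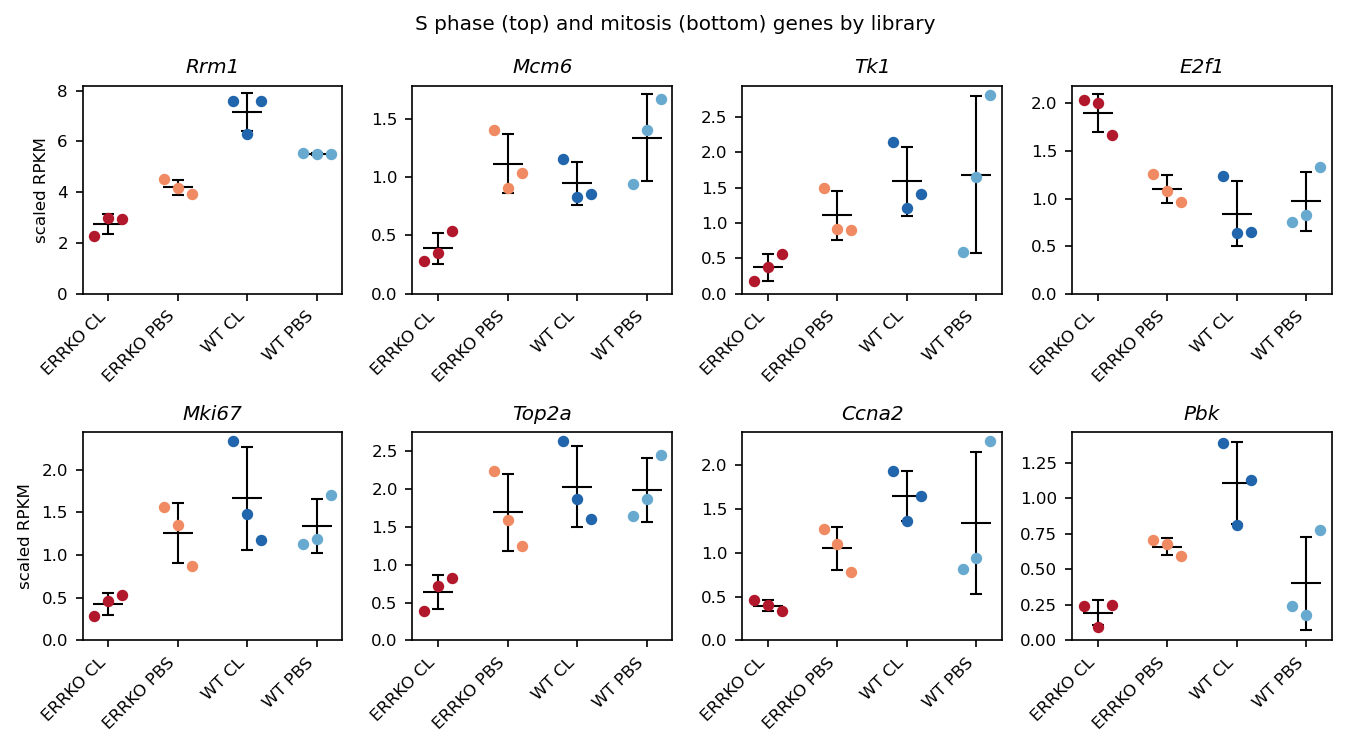
Scaled RPKM (y axis, linear) of 4 S phase and 4 mitosis genes in each of the 12 libraries, by group, with black bars for the mean ± SD of 3 libraries. Rrm1 in ERRKO_CL lies at 2.29 to 3.00, below all other libraries, and E2f1 in ERRKO_CL at 1.67 to 2.03, above all others.

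Among the mitosis genes, the most widely used proliferation markers fell. Mki67, which coats mitotic chromosomes, had 0.284, 0.460 and 0.529 scaled RPKM in ERRKO_CL, against 2.33, 1.48 and 1.18 in WT_CL. Top2a, the topoisomerase that untangles sister chromatids, had 0.387, 0.719 and 0.823 in ERRKO_CL, against 2.64, 1.86 and 1.60 in WT_CL. For both genes every ERRKO_CL library was below every library of the other 3 groups. Mki67 fell by 1.20 ± 0.22 (log2, adjusted p = 0.00091) and Top2a by 1.15 ± 0.22 (adjusted p = 0.0012). On 58 to 103 Mki67 reads per ERRKO_CL library and 141 to 289 per WT_CL library, the count test (edgeR quasi-likelihood), which adds no 0.5 RPKM, gave a larger log2 change of -1.98 (adjusted p = 0.00033).

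Cyclin genes of mitosis split. Ccna2, the cyclin of late S phase and early mitosis, had 0.455, 0.408 and 0.331 scaled RPKM in ERRKO_CL, against 1.94, 1.36 and 1.65 in WT_CL. Ccnb2, a B-type cyclin that activates Cdk1, had 0.352, 0.338 and 0.201 in ERRKO_CL, against 1.74, 1.29 and 1.15 in WT_CL. Neither overlapped between the groups, and the log2 changes were -1.25 ± 0.25 for Ccna2 (adjusted p = 0.0015) and -1.24 ± 0.28 for Ccnb2 (adjusted p = 0.0039). Ccna2 shares 12.5% of its exon bases with Exosc9. Ccnb1, the other B-type cyclin, had 1.02, 0.832 and 2.41 in ERRKO_CL and 1.16, 0.825 and 0.874 in WT_CL. ERRKO_CL replicate 3 held the highest Ccnb1 level of the study, and the log2 change of 0.32 ± 0.30 did not pass the test (adjusted p = 0.432). The deposited scale gave 0.79, called higher (adjusted p = 0.032). Cdk1, the kinase that both B-type cyclins activate, had 0.740, 1.09 and 0.597 in ERRKO_CL and 1.17, 1.16 and 1.21 in WT_CL. Its change of -0.38 ± 0.20 did not pass (adjusted p = 0.147).

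Genes of the spindle and its checkpoint followed the cyclins in part. Tpx2, which nucleates spindle microtubules, averaged 0.196 ± 0.0838 scaled RPKM in ERRKO_CL and 0.846 ± 0.192 in WT_CL (SD, n = 3 each) and fell by 0.95 ± 0.21 on the log2 scale (adjusted p = 0.0037). Prc1, which bundles microtubules at the spindle midzone, averaged 0.328 ± 0.142 in ERRKO_CL and 1.27 ± 0.204 in WT_CL (SD, n = 3 each) and fell by 1.10 ± 0.24 (adjusted p = 0.0031). It shares 11.1% of its exon bases with Rccd1. The mitotic kinase Pbk had 0.239, 0.0949 and 0.251 in ERRKO_CL, against 1.38, 0.808 and 1.13 in WT_CL, and fell by 1.20 ± 0.23 (adjusted p = 0.0013). The checkpoint kinase Bub1b changed by -0.75 ± 0.19 (adjusted p = 0.0075) and Cdc20, the activator of the anaphase-promoting complex that the checkpoint holds back, by -0.50 ± 0.13 (adjusted p = 0.00998). Plk1, a kinase of mitotic entry, changed by -0.60 ± 0.17 (adjusted p = 0.013), and Kif11, the kinesin that separates the spindle poles, by -0.78 ± 0.27 (adjusted p = 0.035).

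The remaining mitosis genes were less separated. Ube2c, the ubiquitin-conjugating enzyme of the anaphase-promoting complex, changed by -0.55 ± 0.19 (adjusted p = 0.039) but not in the count test (adjusted p = 0.086). It shares 22.8% of its exon bases with Tnnc2, a troponin gene of skeletal muscle, whose part in its level was not tested. Kif23 and Kif20a, kinesins of cytokinesis, changed by -0.58 ± 0.23 and -0.48 ± 0.20 and the spindle protein gene Nusap1 by -0.50 ± 0.19, without passing (adjusted p = 0.063, 0.070 and 0.054). Kif20a shares 29.3% of its exon bases with Cdc23. For Aurka, a kinase of the spindle poles, the change was -0.19 ± 0.20 (adjusted p = 0.474). The call of Plk1 was lost without ERRKO_CL replicate 1 or 2 (adjusted p = 0.0506 and 0.052), that of Kif11 without ERRKO_CL replicate 1 or 3 or WT_CL replicate 1 (0.122, 0.065 and 0.146). That of Ube2c was lost without ERRKO_CL replicate 1 or 2, ERRKO_PBS replicate 1, WT_CL replicate 2 or 3 or WT_PBS replicate 2 (0.051 to 0.138).

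Of the 6 mitosis genes below the level for the main test, 3 were in the count test and 3 in neither. Bub1, a checkpoint kinase, had 0.0795, 0.0961 and 0.0835 scaled RPKM in ERRKO_CL, against 0.356, 0.402 and 0.214 in WT_CL. Aurkb, the kinase of the chromosomal passenger complex, had 0.150, 0.265 and 0.184 in ERRKO_CL and 0.621, 0.423 and 0.386 in WT_CL. Neither gene overlapped between these groups. Cenpf and Cenpe, kinetochore genes, were in the count test and fell by 2.08 (adjusted p = 0.0046) and 1.19 (adjusted p = 0.021) on the log2 scale, on 12 to 25 and 16 to 27 reads per ERRKO_CL library. Birc5, a subunit of the passenger complex, had a log2 change of -1.21 that did not pass the count test (adjusted p = 0.068). Ttk, a checkpoint kinase, had 0.0474, 0.0501 and 0.249 in ERRKO_CL and 0.444, 0.187 and 0.298 in WT_CL, which overlap.

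**Figure D2:**
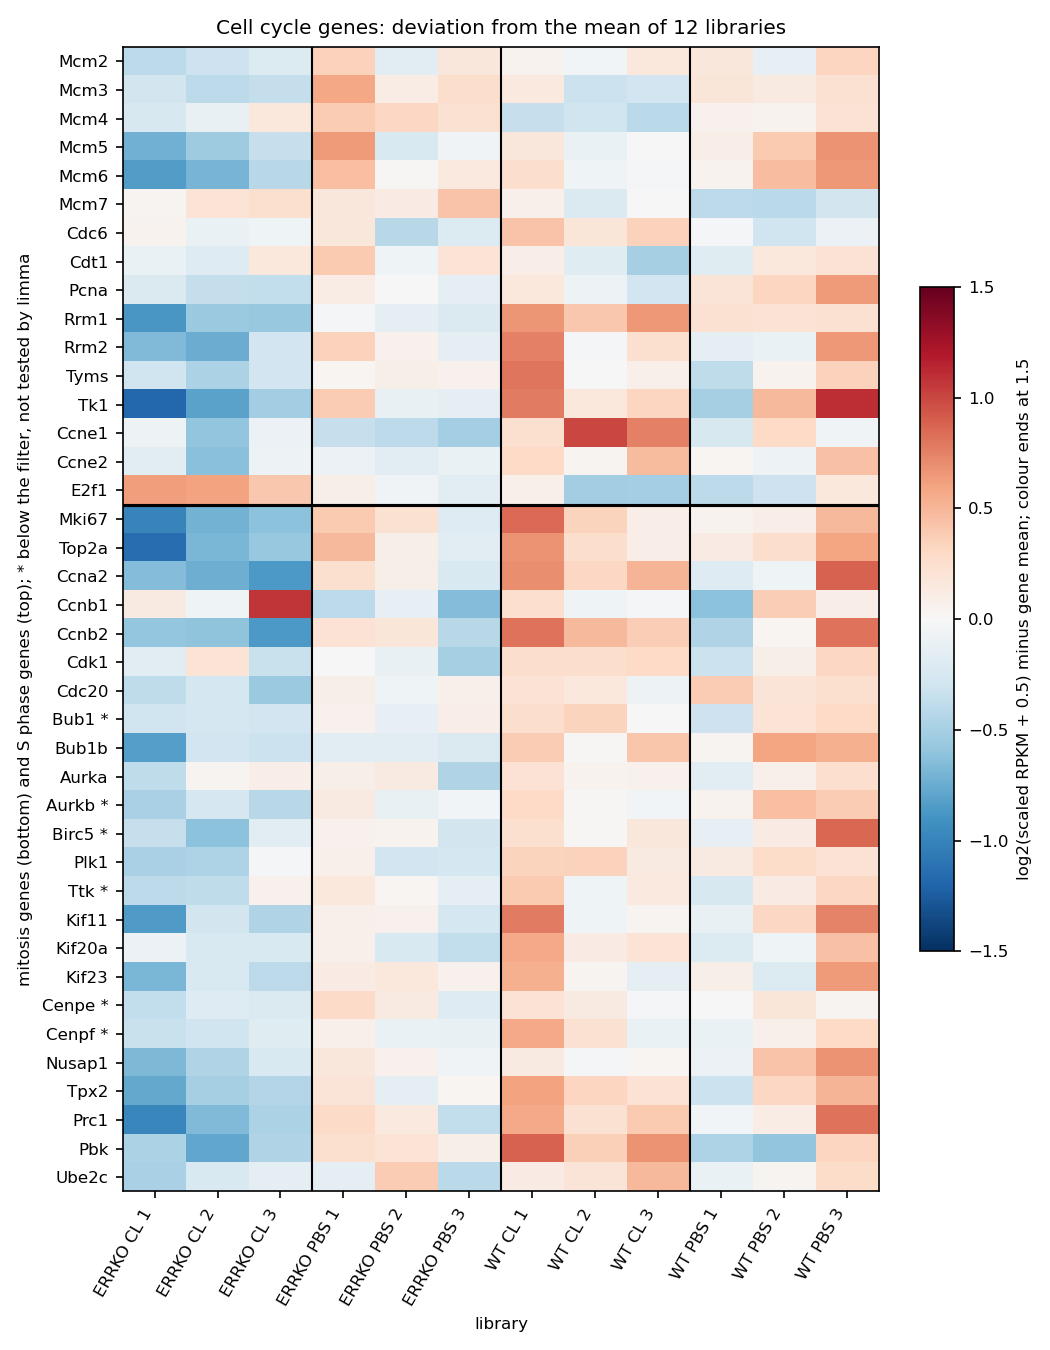
Deviation of each of the 40 genes (rows) from its own mean over the 12 libraries (columns), as log2 of scaled RPKM plus 0.5, with S phase genes above the thick line and mitosis genes below it. Most rows are blue (low) in the 3 ERRKO_CL columns, while E2f1 and, in ERRKO_CL replicate 3, Ccnb1 are red (high).

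By the count test, 18 of 32 members were lower and 1 was higher in ERRKO_CL than in WT_CL, against a background of 21.5% lower and 19.6% higher over 12380 genes. On the deposited scale 9 of 34 were lower and 7 higher, the 7 being E2f1, Mcm3, Mcm4, Mcm7, Cdt1, Pcna and Ccnb1. The 9 that fell on both scales were Rrm1, Tk1, Mki67, Top2a, Ccna2, Ccnb2, Tpx2, Prc1 and Pbk. A positive change was seen in 12 of 34 members on the deposited scale and 5 on the median-ratio scale. Pcna at 0.46 and Mcm3 at 0.37 were called higher on the deposited scale, and Ube2c stood at 0.027 without passing. Of the 20 calls, 14 held without each library in turn, and 17 members were called, 16 lower and 1 higher, without the ERRKO_CL and ERRKO_PBS libraries with the most muscle transcript. Those 9 genes and E2f1, 10 in all, were called in the same direction under every alternative that tested them.

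Markers of other cell types are given beside this comparison, and their part in it was not tested. The 9 endothelial markers summed to 181 to 205 scaled RPKM in ERRKO_CL and 211 to 246 in WT_CL, and 1 of 9 was lower. For 9 progenitor markers the sums were 196 to 290 in ERRKO_CL and 199 to 221 in WT_CL, with 3 higher and 1 lower, and for 9 macrophage markers 111 to 157 in ERRKO_CL and 104 to 133 in WT_CL, with 2 higher. The 12 lymphocyte markers summed to 7.90 to 10.4 in ERRKO_CL and 7.22 to 13.7 in WT_CL, with 0 of 8 called by limma, 0 of 11 by edgeR and 0 at an unadjusted p under 0.05 by either. Erythroid markers summed to 354 to 477 in ERRKO_CL and 169 to 531 in WT_CL, with 0 of 5 called by limma. On the deposited scale 5 of 9 endothelial, 5 of 9 progenitor and 7 of 9 macrophage markers were higher. So were 2 of 8 lymphocyte and 5 of 5 erythroid markers there, and 0 markers of these lists were lower. The background there was 70.5% higher and 6.62% lower.

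Motif letters in the members' promoters were counted by class. RefSeq promoters (GRCm38.p6, 250 bases before to 50 after the gene start) were at hand for 33 members, 14 S phase and 19 mitosis genes, and were searched on both strands. The CCAAT box (CCAAT) was in 8 of 14 S phase promoters (57.1%), 17 of 19 mitosis promoters (89.5%) and 37.4% of all 32851 promoters. A CHR element (TTTGAA or TTCGAA) was in 2 of 14 (14.3%), 15 of 19 (78.9%) and 19.2%. An E2F site (TTTCGCGC, TTTGGCGC, TTTCCCGC or TTTGCCGC) was in 6 of 14 (42.9%), 1 of 19 (5.26%) and 2.26%. A match describes letters and is not a bound site.

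Shown here are the promoters of the S phase and mitosis genes with the largest changes against WT_CL for which one was at hand, 3 of each class, and that of Mcm6, which had the most E2F letters and was chosen after the matches were seen. Capitals mark the matches. Ccnb2 (chr9:70421505-70421804, minus strand), Mki67 (chr7:135716330-135716629, minus strand) and Top2a (chr11:99024140-99024439, minus strand) hold 3, 3 and 6 CCAAT boxes and 2, 2 and 4 CHR elements. Rrm1 (chr7:102441445-102441744, plus strand) holds 2 CCAAT boxes, and Mcm6 (chr1:128359656-128359955, minus strand) holds 2 CCAAT boxes and 3 E2F sites, of which 2 overlap. Tk1 (chr11:117825965-117826264, minus strand) and Ccne1 (chr7:38107441-38107740, minus strand) hold none of these letters in this window.
Ccnb2: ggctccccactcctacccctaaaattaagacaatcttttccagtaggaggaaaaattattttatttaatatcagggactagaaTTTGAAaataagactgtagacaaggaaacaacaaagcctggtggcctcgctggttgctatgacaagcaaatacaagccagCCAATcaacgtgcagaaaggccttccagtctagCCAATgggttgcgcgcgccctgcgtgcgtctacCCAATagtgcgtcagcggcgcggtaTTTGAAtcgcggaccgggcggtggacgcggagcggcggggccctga
Mki67: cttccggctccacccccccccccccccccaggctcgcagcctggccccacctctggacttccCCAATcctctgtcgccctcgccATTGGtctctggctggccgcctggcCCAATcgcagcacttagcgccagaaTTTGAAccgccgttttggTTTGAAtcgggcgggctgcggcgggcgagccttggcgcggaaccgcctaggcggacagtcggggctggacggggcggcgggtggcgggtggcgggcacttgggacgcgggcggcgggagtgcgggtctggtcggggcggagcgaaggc
Top2a: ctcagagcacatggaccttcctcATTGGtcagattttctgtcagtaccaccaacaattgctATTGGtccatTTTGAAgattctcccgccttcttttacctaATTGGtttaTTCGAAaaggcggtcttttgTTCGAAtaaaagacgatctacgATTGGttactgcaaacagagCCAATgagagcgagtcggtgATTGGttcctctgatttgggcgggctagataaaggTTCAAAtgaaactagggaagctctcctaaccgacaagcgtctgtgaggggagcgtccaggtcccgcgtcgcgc
Rrm1: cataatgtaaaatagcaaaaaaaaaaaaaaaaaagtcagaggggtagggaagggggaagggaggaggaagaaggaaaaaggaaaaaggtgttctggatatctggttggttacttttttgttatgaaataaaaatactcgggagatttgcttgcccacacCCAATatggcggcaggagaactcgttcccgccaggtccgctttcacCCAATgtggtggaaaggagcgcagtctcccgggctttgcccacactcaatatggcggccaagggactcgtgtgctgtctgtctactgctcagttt
Mcm6: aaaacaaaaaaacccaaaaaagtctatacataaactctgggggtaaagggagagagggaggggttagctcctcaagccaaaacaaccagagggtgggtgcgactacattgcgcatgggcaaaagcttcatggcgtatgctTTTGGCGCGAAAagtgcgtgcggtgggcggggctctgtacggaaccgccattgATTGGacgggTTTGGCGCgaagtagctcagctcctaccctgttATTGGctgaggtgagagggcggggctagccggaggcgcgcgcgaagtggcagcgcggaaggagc
Tk1: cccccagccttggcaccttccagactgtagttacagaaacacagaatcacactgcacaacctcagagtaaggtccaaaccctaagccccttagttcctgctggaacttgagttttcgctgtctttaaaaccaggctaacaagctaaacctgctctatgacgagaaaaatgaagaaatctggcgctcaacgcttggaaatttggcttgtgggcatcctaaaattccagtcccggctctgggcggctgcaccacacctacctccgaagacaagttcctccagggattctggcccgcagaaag
Ccne1: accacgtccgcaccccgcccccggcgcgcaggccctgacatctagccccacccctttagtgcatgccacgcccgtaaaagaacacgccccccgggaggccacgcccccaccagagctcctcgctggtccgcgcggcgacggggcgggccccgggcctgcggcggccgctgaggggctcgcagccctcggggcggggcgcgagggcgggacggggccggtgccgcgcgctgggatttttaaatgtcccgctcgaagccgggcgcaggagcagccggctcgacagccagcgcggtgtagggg

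Without the agonist the genotypes differed in few members. By limma 3 of 34 were lower and 1 was higher in ERRKO_PBS than in WT_PBS, against a background of 18.4% lower and 15.8% higher. The median log2 change was -0.03 for S phase and -0.21 for mitosis genes. Mcm7 had 9.56, 9.24 and 11.5 scaled RPKM in ERRKO_PBS, against 6.33, 6.25 and 6.89 in WT_PBS. Its groups did not overlap, and it rose by 0.60 ± 0.11 on the log2 scale (adjusted p = 0.0011). Mcm7 shares 12.6% of its exon bases with Ap4m1, Cops6, Mir25 and Mir93.

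The genes that fell under PBS were Pcna, Rrm1 and Bub1b. Pcna had 32.8, 30.4 and 27.5 scaled RPKM in ERRKO_PBS, against 34.8, 38.1 and 47.3 in WT_PBS, and fell by 0.39 ± 0.13 (adjusted p = 0.037). Rrm1 had 4.51, 4.17 and 3.92 in ERRKO_PBS, against 5.54, 5.49 and 5.50 in WT_PBS, and fell by 0.35 ± 0.11 (adjusted p = 0.027). Bub1b had 0.804, 0.793 and 0.758 in ERRKO_PBS, against 1.01, 1.69 and 1.61 in WT_PBS, and fell by 0.57 ± 0.19 (adjusted p = 0.036). None of the 3 overlapped between groups, which rests on the same libraries as the calls. All 3 calls were lost without ERRKO_PBS replicate 2, ERRKO_PBS replicate 3, WT_PBS replicate 2 or WT_PBS replicate 3 (for Rrm1, adjusted p = 0.060, 0.090, 0.059 and 0.0503). Pcna was also lost without WT_CL replicate 2 (0.051), Rrm1 without WT_PBS replicate 1 (0.061) and Bub1b without ERRKO_PBS replicate 1 (0.075), so that of the 4 calls only that of Mcm7 held without each library. It was also the 1 call left without the ERRKO_CL and ERRKO_PBS libraries with the most muscle transcript. Proliferation markers showed no such separation: Mki67 had 1.56, 1.35 and 0.872 in ERRKO_PBS and 1.13, 1.18 and 1.71 in WT_PBS, with a log2 change of -0.07 ± 0.22 (adjusted p = 0.829). For Top2a the change was -0.19 ± 0.22 (adjusted p = 0.520).

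The count test called 3 of 32 members lower and 1 higher under PBS, against 17.1% and 17.7% of all genes. On the deposited scale 0 were lower and 7 higher, against 6.22% and 66.3%. At an unadjusted p under 0.05, 0 were lower there too, beside 801 of all 12249 genes tested. The members' median there was 0.22, and Pcna and Rrm1 turned to 0.19 and 0.18 without passing. Endothelial markers summed to 190 to 194 scaled RPKM in ERRKO_PBS and 200 to 303 in WT_PBS, with 3 of 9 lower. Progenitor markers summed to 291 to 327 in ERRKO_PBS and 239 to 288 in WT_PBS, with 1 of 9 lower and 0 higher. Lymphocyte markers summed to 14.2 to 21.8 in ERRKO_PBS and 11.3 to 24.9 in WT_PBS, with 4 of 8 higher by limma. By edgeR 2 of 11 were higher and 1 lower. On the deposited scale 1 of 9 endothelial, 7 of 9 progenitor and 5 of 8 lymphocyte markers were higher. Of these markers only 1, a progenitor one, was lower there. Their part was not tested.

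In WT brown fat the agonist left few differences 24 h after the last of 10 doses. Of 34 members, 4 were higher and 2 lower in WT_CL than in WT_PBS, against a background of 18% higher and 12.6% lower. The median log2 change was 0.08 for all members. Pbk had 1.38, 0.808 and 1.13 scaled RPKM in WT_CL, against 0.244, 0.178 and 0.778 in WT_PBS, and rose by 0.88 ± 0.23 (adjusted p = 0.014). Ccne1 had 1.62, 3.10 and 2.54 in WT_CL and 1.03, 1.72 and 1.24 in WT_PBS and rose by 0.66 ± 0.21 (adjusted p = 0.034), although 1 WT_PBS library lay above the lowest WT_CL library. Rrm1 rose by 0.34 ± 0.11 (adjusted p = 0.034), with 6.28 to 7.59 in WT_CL and 5.49 to 5.54 in WT_PBS, and Mcm7 by 0.31 ± 0.11 (adjusted p = 0.048), with 7.18 to 8.90 in WT_CL and 6.25 to 6.89 in WT_PBS.

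Mcm4 and Pcna fell with the agonist in WT. Mcm4 had 2.52, 2.62 and 2.40 scaled RPKM in WT_CL, against 3.51, 3.50 and 3.98 in WT_PBS, and fell by 0.47 ± 0.11 (adjusted p = 0.0084). Pcna had 33.6, 28.6 and 24.7 in WT_CL, against 34.8, 38.1 and 47.3 in WT_PBS, and fell by 0.46 ± 0.13 (adjusted p = 0.021). Neither overlapped. The call of Mcm4 held without each library, while the other 5 were lost without at least 1: for Pbk those were WT_CL replicate 1 and WT_PBS replicate 2 (adjusted p = 0.054 and 0.058), and for Pcna WT_CL replicate 2, WT_CL replicate 3 and WT_PBS replicate 3 (0.058, 0.093 and 0.065). Calls of Ccne1 were lost without WT_CL replicate 2 or 3 or WT_PBS replicate 1 or 3 (0.072 to 0.135) and those of Rrm1 without WT_CL replicate 1 or 3 or any of the WT_PBS replicates (0.057 to 0.112). The call of Mcm7 was lost without ERRKO_CL replicate 2 or 3, ERRKO_PBS replicate 1 or 2, WT_CL replicate 1 or 3 or WT_PBS replicate 1 or 2 (0.051 to 0.150). Mki67 had 2.33, 1.48 and 1.18 in WT_CL and 1.13, 1.18 and 1.71 in WT_PBS, which overlap, with a log2 change of 0.21 ± 0.22 (adjusted p = 0.504). Top2a changed by 0.02 ± 0.22 (adjusted p = 0.959).

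In the count test 3 of 32 members were higher and 2 lower in WT_CL, against 17.1% and 12.3% of all genes. The deposited scale gave 1 higher and 5 lower, against 7.2% and 38.1%. There the rises of Rrm1, Mcm7 and Ccne1 were 0.04, 0.01 and 0.39 and did not pass (adjusted p = 0.780, 0.965 and 0.153). Macrophage markers summed to 104 to 133 scaled RPKM in WT_CL and 182 to 382 in WT_PBS, with 6 of 9 lower, and erythroid markers to 169 to 531 in WT_CL and 726 to 794 in WT_PBS, with 4 of 5 lower. Progenitor markers summed to 199 to 221 in WT_CL and 239 to 288 in WT_PBS, with 3 of 9 lower. Lower too were 2 of 8 lymphocyte markers and 1 of 9 endothelial markers. On the deposited scale 9 of 9 macrophage, 4 of 5 erythroid and 4 of 9 progenitor markers were lower. So were 2 of 8 lymphocyte and 5 of 9 endothelial markers there, and 0 markers of these lists were higher. Their part was not tested.

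In ERRKO brown fat the members that passed the test for the agonist were all lower. By limma 5 of 34 were lower and 0 higher in ERRKO_CL than in ERRKO_PBS, against a background of 3.62% lower and 6.68% higher. At an unadjusted p under 0.05, 19 were lower and 2 higher, beside 1182 lower and 1889 higher of all 12249 genes tested. The median log2 change was -0.42, beside 0.02 for all genes tested. The comparison shares its ERRKO_CL libraries with that against WT_CL, so these comparisons are not independent.

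S phase genes that fell were Mcm3, Mcm6 and Rrm1. Mcm6 had 0.278, 0.353 and 0.537 scaled RPKM in ERRKO_CL, against 1.40, 0.908 and 1.04 in ERRKO_PBS, and fell by 0.86 ± 0.19 (adjusted p = 0.015). Mcm3 had 1.95, 1.75 and 1.81 in ERRKO_CL, against 3.92, 2.70 and 3.05 in ERRKO_PBS, and fell by 0.66 ± 0.15 (adjusted p = 0.016). Rrm1 had 2.29, 3.00 and 2.95 in ERRKO_CL, against 4.51, 4.17 and 3.92 in ERRKO_PBS, and fell by 0.54 ± 0.11 (adjusted p = 0.011). Mitosis genes that fell were Mki67, with 0.284, 0.46 and 0.529 in ERRKO_CL, against 1.56, 1.35 and 0.872 in ERRKO_PBS and a log2 change of -0.92 ± 0.22 (adjusted p = 0.023), and Top2a, with 0.387, 0.719 and 0.823 in ERRKO_CL, against 2.24, 1.59 and 1.24 in ERRKO_PBS and a change of -0.94 ± 0.22 (adjusted p = 0.020). All 5 were without overlap between the groups, which rests on the same libraries as the calls.

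None of these 5 calls held without every library in turn. Without ERRKO_PBS replicate 1, the library with the highest level of each of these genes in its group, all 5 missed the threshold (adjusted p = 0.056 to 0.095) with changes of -0.49 to -0.78. Without ERRKO_CL replicate 1 the calls of Mcm6, Mki67 and Top2a were lost (0.057 to 0.080), without ERRKO_CL replicate 2 those of Mcm3, Mcm6 and Mki67 (0.053 to 0.058), without ERRKO_CL replicate 3 that of Mcm3 (0.0503), and without ERRKO_PBS replicate 2 that of Mki67 (0.061). The count test called 9 of 32 lower and 0 higher, against 4.3% and 5.54% of all genes. The deposited scale gave 19 lower and 0 higher, against 13.7% and 3.23%. Macrophage markers summed to 111 to 157 scaled RPKM in ERRKO_CL and 173 to 217 in ERRKO_PBS. By limma and edgeR 0 of 9 were called. At an unadjusted p under 0.05, 5 were lower by limma and 7 by edgeR, beside 1182 of 12249 and 1485 of 12380 genes. Lymphocyte markers summed to 7.90 to 10.4 and 14.2 to 21.8 in the same order, with 3 of 8 lower. Progenitor sums were 196 to 290 and 291 to 327, with 1 of 9 lower. Erythroid sums were 354 to 477 and 533 to 736, with 0 of 5 called. Endothelial sums were 181 to 205 and 190 to 194, with 0 of 9 called. On the deposited scale 4 macrophage, 5 lymphocyte, 1 progenitor, 0 erythroid and 1 endothelial markers were lower, and 0 were higher. Their part was not tested.

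**Figure D3:**
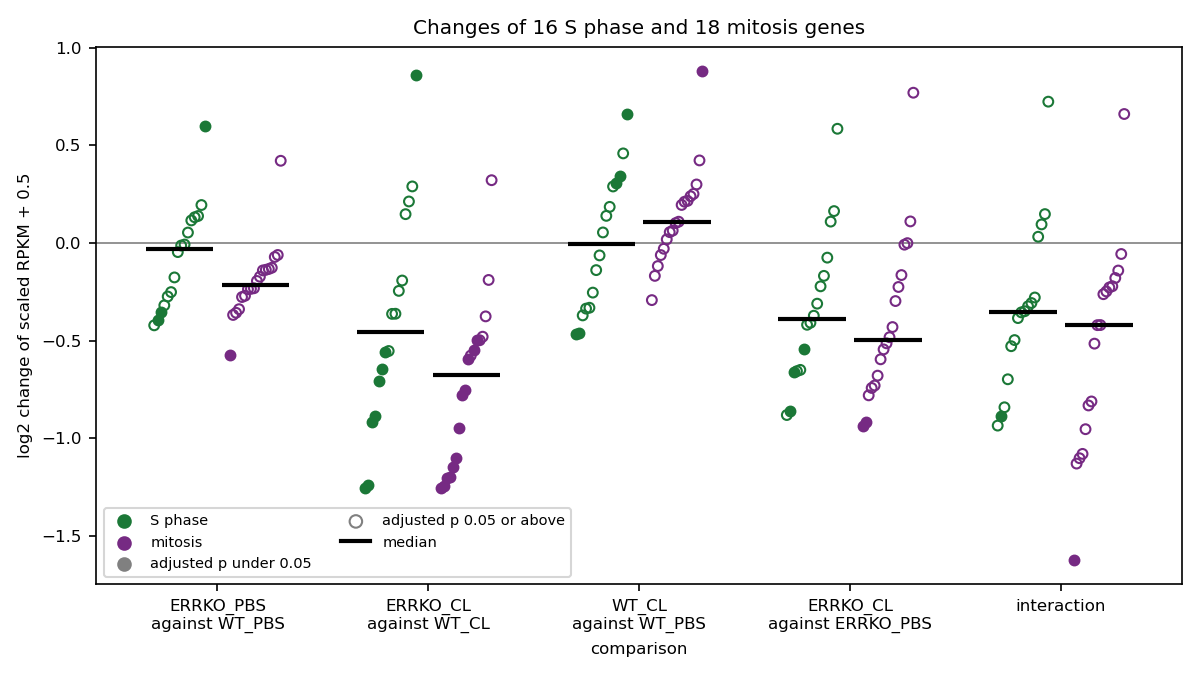
Log2 change (y axis) of the 16 S phase (green) and 18 mitosis (purple) genes tested by limma in each of the 5 comparisons, with filled points for an adjusted p under 0.05 and black bars for the class median. The medians in ERRKO_CL against WT_CL are -0.46 and -0.67, and those in ERRKO_PBS against WT_PBS are -0.03 and -0.21.

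The interaction asks whether the agonist effect in ERRKO differed from that in WT. By limma 2 of 34 members had a lower and 0 a higher agonist effect in ERRKO, against a background of 2.02% lower and 1.89% higher. At an unadjusted p under 0.05, 11 were lower and 1 higher, beside 1219 lower and 1080 higher of all 12249 genes tested. Rrm1 fell by 0.54 with the agonist in ERRKO and rose by 0.34 in WT, a rise of 0.04 on the deposited scale. The difference was -0.88 ± 0.16 (adjusted p = 0.011). This call held without each library and under every alternative (adjusted p = 0.0087 to 0.034). Pbk had a log2 agonist change of -0.74 in ERRKO, which did not pass (adjusted p = 0.064), and of 0.88 in WT, a difference of -1.62 ± 0.33 (adjusted p = 0.021). It was lost without ERRKO_CL replicate 2, ERRKO_PBS replicate 1, WT_CL replicate 1 or WT_CL replicate 3 (0.051 to 0.056). Leaving out both ERRKO libraries with the most muscle transcript also lost it (0.060). Pbk was not among the genes of the count test.

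Other members had differences of like sign that did not pass. Mki67 stood at -1.13 ± 0.31 (adjusted p = 0.067), Top2a at -0.95 ± 0.31 (0.113) and Ccna2 at -1.08 ± 0.35 (0.115), while E2f1 stood at 0.72 ± 0.27 (0.171). In the count test 2 of 32 passed, both lower, Rrm1 at -1.02 (adjusted p = 0.0087) and Mki67 at -1.92 (0.036), and 0 were higher, against 1.87% lower and 1.46% higher. The deposited scale also gave 2 lower and 0 higher, against 1.26% and 3.88%.

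S phase and mitosis genes were also followed library by library, as the median deviation of each class from the gene means over the 12 libraries. For S phase genes this was -0.26, -0.43 and -0.25 (log2) in ERRKO_CL, 0.26, -0.06 and -0.08 in ERRKO_PBS, 0.20, -0.05 and 0.04 in WT_CL and 0.00, 0.10 and 0.28 in WT_PBS. For mitosis genes it was -0.62, -0.37 and -0.41 in ERRKO_CL, 0.10, 0.08 and -0.25 in ERRKO_PBS, 0.55, 0.21 and 0.17 in WT_CL and -0.11, 0.10 and 0.50 in WT_PBS. ERRKO_CL libraries were the lowest 3 for both classes. Libraries of the other groups overlapped for S phase genes. For mitosis genes WT_CL lay wholly above ERRKO_PBS, and WT_PBS overlapped both.

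The median change of S phase genes minus that of mitosis genes was 0.22 in ERRKO_CL against WT_CL, 0.18 in ERRKO_PBS against WT_PBS, -0.11 for the agonist in WT and 0.11 in ERRKO. The S phase median deviation of a library minus its mitosis one is another measure. It was 0.36, -0.07 and 0.17 in ERRKO_CL, 0.16, -0.14 and 0.17 in ERRKO_PBS, -0.34, -0.26 and -0.13 in WT_CL and 0.11, -0.004 and -0.22 in WT_PBS. ERRKO_CL lay wholly above WT_CL, and every other pair of groups overlapped. The pooled SD of this measure within groups was 0.17, the spread of single libraries and not the error of a median change. Replicates also differed across the list. WT_PBS replicate 3 held the highest level of its group for 13 of 16 S phase and 18 of 24 mitosis genes, and WT_PBS replicate 1 the lowest for 9 and 21. In WT_CL, replicate 1 was highest for 12 and 19, and in ERRKO_PBS replicate 1 was highest for 14 and 19. ERRKO_PBS replicate 3, the library with the most muscle transcript, was lowest for 7 and 19, and ERRKO_PBS replicate 2, with the least of its group, for 8 and 5. ERRKO_CL replicate 3, with the most muscle transcript of its group, was highest for 10 and 13. In ERRKO_CL, replicate 1 was lowest for 7 S phase genes, as many as replicate 2, and for 16 mitosis genes.

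**Figure D4:**
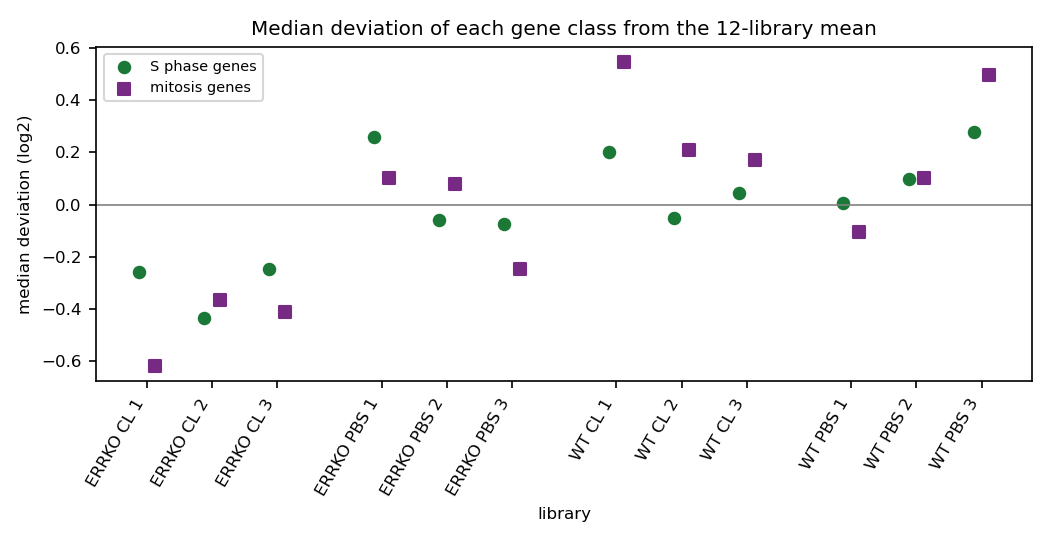
Median deviation (log2, y axis) of the 16 tested S phase genes (green circles) and the 18 tested mitosis genes (purple squares) from the gene means over 12 libraries, for each library. The ERRKO_CL libraries lie at -0.25 to -0.62, and the mitosis value spans -0.11 to 0.50 among the WT_PBS libraries.

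Genes that work with the members were counted in lists of their own. Of 41 tested other replication genes, 11 were lower and 2 higher in ERRKO_CL than in WT_CL, and 7 lower and 2 higher in ERRKO_PBS than in WT_PBS. The background was 21.6% lower and 19.8% higher under CL316,243 and 18.4% lower and 15.8% higher under PBS, so the shares of lower genes lay near it. Their medians were -0.12 and -0.11. The split turned on the deposited scale, with 2 lower and 25 higher under CL316,243 and 2 lower and 22 higher under PBS, against 70.5% and 66.3% higher over all genes. Gmnn, geminin, which binds Cdt1 and blocks relicensing of origins, had 2.42, 3.20 and 4.98 scaled RPKM in ERRKO_CL, against 39.2, 36.8 and 40.1 in WT_CL. It had 4.25, 3.92 and 4.20 in ERRKO_PBS, against 27.1, 22.1 and 30.4 in WT_PBS. Both separations were complete, with log2 changes of -3.33 ± 0.18 (adjusted p = 6.1e-08) and -2.54 ± 0.18 (adjusted p = 7.9e-07). Rpa3, a subunit of the single-strand binding protein RPA, changed by -1.20 ± 0.09 under CL316,243 and -1.01 ± 0.09 under PBS (adjusted p = 4.4e-07 and 2.7e-06).

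Other mitosis genes had 16 lower and 3 higher of 26 tested in ERRKO_CL against WT_CL, with a median of -0.66, and 4 lower and 3 higher in ERRKO_PBS against WT_PBS, beside the same backgrounds. The deposited scale gave 5 lower and 5 higher under CL316,243 and 2 lower and 10 higher under PBS. Cenpa, the histone of centromeres, had 1.09, 1.52 and 1.44 scaled RPKM in ERRKO_CL and 7.51, 7.41 and 6.88 in WT_CL, a log2 change of -2.08 ± 0.13 (adjusted p = 1.6e-07). It fell under PBS as well, by 1.32 ± 0.13 (adjusted p = 1.1e-05). Cks2 and Cks1b, paralogous proteins that bind cyclin-dependent kinases, went opposite ways: Cks2 fell by 1.35 ± 0.19 (adjusted p = 0.00013) and Cks1b rose by 1.23 ± 0.16 (adjusted p = 6.9e-05) in ERRKO_CL against WT_CL. Foxm1, a transcription factor of mitosis genes, fell by 0.70 ± 0.16 (adjusted p = 0.0036), at 0.190 to 0.286 in ERRKO_CL and 0.560 to 0.839 in WT_CL. These 6 genes kept their direction in ERRKO_CL against WT_CL on the deposited scale, where Gmnn stood at -2.65, Rpa3 at -0.52, Cenpa at -1.46, Cks2 at -0.72, Cks1b at 1.90 and Foxm1 at -0.36.

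Inhibitors of cyclin-dependent kinases and genes of G1 had 11 higher and 7 lower of 26 tested in ERRKO_CL against WT_CL, with a median of 0.23, and 5 higher and 6 lower in ERRKO_PBS against WT_PBS. The background was 19.8% higher and 21.6% lower under CL316,243 and 15.8% higher and 18.4% lower under PBS. The deposited scale gave 17 higher under CL316,243, and 17 higher and 1 lower under PBS, against 70.5% and 66.3% higher over all genes. Cdkn2c, the inhibitor p18 of Cdk4 and Cdk6, had 119, 76.4 and 86.3 scaled RPKM in ERRKO_CL, against 55.8, 43.2 and 46.1 in WT_CL, and rose by 0.93 ± 0.23 (adjusted p = 0.0060). Cdkn1b, the inhibitor p27, rose by 0.48 ± 0.10 (adjusted p = 0.0024). For Cdkn1a, the inhibitor p21, the change was -0.53 ± 0.23 (adjusted p = 0.078), and for Cdkn1c, p57, it was 0.38 ± 0.15 (adjusted p = 0.055). Among the cyclins of G1, Ccnd2 rose by 0.99 ± 0.10 (adjusted p = 7.8e-06) and Ccnd3 by 0.32 ± 0.07 (adjusted p = 0.0038), while Ccnd1 fell by 0.97 ± 0.23 (adjusted p = 0.0048). E2f2, a relative of E2f1, fell by 1.02 ± 0.25 (adjusted p = 0.0054). Unscaled, as deposited, Cdkn2c stood at 1.64, Ccnd2 at 1.65, Ccnd1 at -0.32 and E2f2 at -0.53, which did not pass (adjusted p = 0.232 and 0.072), while Cdkn1a turned to 0.15. Cdkn1c shares 30.7% and Ccnd1 23.4% of exon bases with other genes.

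Under PBS the largest changes in these lists, ERRKO_PBS against WT_PBS, included Pttg1, securin, at -1.51 ± 0.10, Cks1b at 1.36 ± 0.16, Cdkn2c at 1.28 ± 0.23, Cdk6, the kinase partner of D-type cyclins, at -1.15 ± 0.14, Ccnd1 at -0.87 ± 0.23 and Gins1, a subunit of the replicative helicase complex, at 0.84 ± 0.20 (adjusted p = 3.5e-07, 4.6e-05, 0.00097, 7.0e-05, 0.011 and 0.0067). Ccnd1 did not pass with the deposited values (adjusted p = 0.246). In WT_CL against WT_PBS, other replication genes had 8 higher and 7 lower of 41, other mitosis genes 5 higher and 1 lower of 26, and inhibitors and G1 genes 4 higher and 5 lower of 26. The background was 18% higher and 12.6% lower, near the shares of higher genes in these lists. The deposited scale gave 2 higher and 15 lower, 2 higher and 3 lower, and 14 lower for these lists, against 7.2% higher and 38.1% lower.

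Cdc45 and Cdc7, both needed to fire replication origins, rose with the agonist in WT. Cdc45, a helicase subunit, had 4.06, 4.42 and 4.33 scaled RPKM in WT_CL, against 1.97, 2.29 and 2.19 in WT_PBS, and rose by 0.85 ± 0.14 (adjusted p = 0.0010). Cdc7, the kinase that fires origins, rose by 0.86 ± 0.16 (adjusted p = 0.0018). Cenpa rose by 0.81 ± 0.13 and the condensin gene Ncapg2 by 0.83 ± 0.13 (adjusted p = 0.00085 and 0.00067), while Pttg1 fell by 0.72 ± 0.10, Rpa1, the large RPA subunit, by 1.04 ± 0.11, Cdkn1c by 0.80 ± 0.15 and Trp53, the gene of p53, by 0.61 ± 0.12 (adjusted p = 0.00031, 4.4e-05, 0.0019 and 0.0027).

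In ERRKO_CL against ERRKO_PBS few genes of these lists passed. Prim1, the primase subunit, fell by 0.81 ± 0.18, Rpa1 by 0.56 ± 0.11, the polymerase subunit gene Pold3 by 0.48 ± 0.13 and the kinetochore gene Ndc80 by 0.76 ± 0.17 (adjusted p = 0.015, 0.0079, 0.032 and 0.017). These were the 3 of 41 other replication genes and the 1 of 26 other mitosis genes called. Cdk6 rose by 0.82 ± 0.14, Ccnd2 by 0.37 ± 0.10 and Ccnd3 by 0.30 ± 0.07 (adjusted p = 0.0052, 0.037 and 0.026), the 3 of 26 inhibitor and G1 genes called. The background was 3.62% lower and 6.68% higher. The calls of Rpa1 and Cdk6 held without each library. Without ERRKO_PBS replicate 1 or ERRKO_CL replicate 3 those of Prim1, Pold3, Ndc80, Ccnd2 and Ccnd3 were lost. Prim1 was also lost without ERRKO_CL replicate 2, Pold3, Ccnd2 and Ccnd3 without ERRKO_CL replicate 1 or ERRKO_PBS replicate 2, and Ccnd2 without ERRKO_PBS replicate 3, WT_CL replicate 1 or WT_CL replicate 3. In all these cases the adjusted p was 0.051 to 0.129. With the deposited scale 11 other replication and 11 other mitosis genes were lower, against 13.7%, and Ccnd2 and Ccnd3 did not pass (adjusted p = 0.234 and 0.366).

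**Figure D5:**
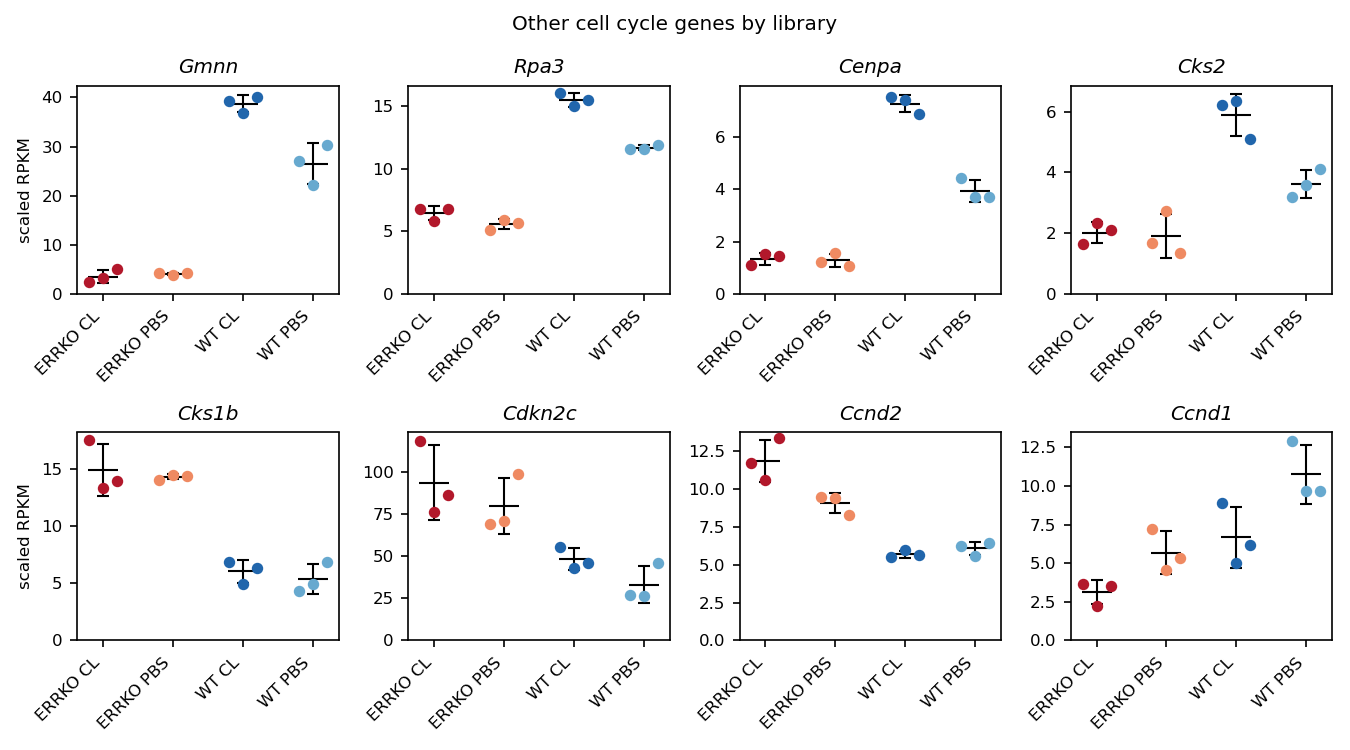
Scaled RPKM (y axis, linear) of 8 genes outside the list of 40 in each library, with black bars for the mean ± SD of 3 libraries. Gmnn in the ERRKO groups lies at 2.42 to 4.98 and in the WT groups at 22.1 to 40.1, and Cks1b shows the opposite order.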

How the data were processed

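RPKM for 24452 genes were deposited by the authors for 12 libraries, 3 per group, with groups and replicate numbers from the labels. The second deposited table is a linear signal, whole multiples of a step per library (100% of values within 0.01), from which reads of 12380 genes were recovered; it has 9 stray cells, in 4 columns that no label names, and these were not used. The submitters' processing notes name bcl2fastq 2.16.0.10, cutadapt, STAR 2.3.0, edgeR, mm9 and mm10; the counter, its annotation and its use of strand were not given in the sources used here, which leaves overlapping genes uncertain. Overlaps come from GENCODE M21 (GRCm38).

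The main test used limma 3.58.1 (trended empirical Bayes, R 4.3.3) on log2 of median-ratio scaled RPKM plus 0.5. It covered the 12249 genes whose mean RPKM reached 0.5, with 4 group means and 8 residual degrees of freedom, with Benjamini-Hochberg adjustment within each of 5 comparisons at 0.05. Adding 0.5 understates changes of low genes. edgeR 4.0.16 quasi-likelihood with TMM was run on the recovered reads. The fit was tested on simulated data. Members, lists and tests were chosen with earlier results of these data known. Named genes were all members and, per other list, the 3 largest called changes in a comparison, with Foxm1, Cdkn1a, Cdkn1b, Cdkn1c, Cdkn2c, Ccnd1, Ccnd2, Ccnd3 and Esrra. Alternatives were the deposited scale, quantile normalization, pseudocounts 0.1 and 1, no filter, a mean RPKM of at least 2, only the groups compared, edgeR, a block for replicate number, and leaving out single libraries. Leaving out both ERRKO libraries with the most muscle transcript was added after seeing the data.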

Additional observations from a re-analysis of the deposited data

Results flagged for a closer look

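The agonist effect in ERRKO differed from that in WT, by limma's interaction term, for 2 of 34 members, 1 of 41 other replication genes, 4 of 26 other mitosis genes and 1 of 26 inhibitor and G1 genes, against a background of 2.02% lower and 1.89% higher over all genes. Among the members these were Rrm1, with a difference of -0.88 (log2), and Pbk, with -1.62. Among the other mitosis genes the condensin gene Ncapg2, at -0.97 (adjusted p = 0.015), was called without each library and by the count test. Among the other replication genes Cdc7, a kinase that fires origins, stood at -0.88 (adjusted p = 0.049). Its call was lost in the count test (0.060), on the deposited scale (0.085) and without any single library but ERRKO_CL replicate 2 or ERRKO_PBS replicate 3 (0.057 to 0.117). Cenpa, at -0.76 (adjusted p = 0.046), was lost in the count test (0.108), on the deposited scale (0.099) and without any library but ERRKO_PBS replicate 3 or WT_PBS replicate 1 (0.056 to 0.107). The spindle gene Tacc3, at -0.73 (adjusted p = 0.037), was lost on the deposited scale (0.054) and without any library but WT_CL replicate 1 or WT_PBS replicate 3 (0.058 to 0.095). Pttg1, securin, had a positive difference of 0.62 (adjusted p = 0.033), lost without any ERRKO_CL replicate, ERRKO_PBS replicate 1 or 3 or WT_CL replicate 1 or 3 (0.061 to 0.077). Cdk6, the partner of D-type cyclins, had one of 0.96 (adjusted p = 0.025), lost without ERRKO_CL replicate 2 or 3, ERRKO_PBS replicate 1 or 3, WT_CL replicate 1 or 3 or WT_PBS replicate 1 or 2 (0.051 to 0.068).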

How the results depend on the processing

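The count of members called moved by over 1.5 times under these settings. For ERRKO_PBS against WT_PBS, where 4 were called, it was 7 on the deposited scale, 2 with no filter and 1 without both muscle-rich ERRKO libraries, and 1 to 4 with single libraries left out. For ERRKO_CL against WT_CL, with 20 called, it was 2 of 6 tested at a mean RPKM of at least 2, while with libraries left out it was 15 to 24, within 1.5 times. For WT_CL against WT_PBS, with 6, it was 3 with only the groups compared, 3 without the muscle-rich libraries and 2 to 6 with libraries left out, 2 without WT_CL replicate 3 and 3 without WT_PBS replicate 2. For ERRKO_CL against ERRKO_PBS, with 5, it was 19 on the deposited scale, 2 at a mean RPKM of at least 2, 9 with only the groups compared, 9 by edgeR and 0 to 10 with libraries left out, 0 without ERRKO_PBS replicate 1, 2 without ERRKO_CL replicate 1 or 2 and 10 without WT_PBS replicate 3. For the interaction, with 2, it was 1 at a mean RPKM of at least 2, 1 without the muscle-rich libraries and 1 to 6 with libraries left out, 6 without WT_PBS replicate 3. The cause was not tested. A mean RPKM of at least 2 leaves fewer genes, and leaving out libraries or the other groups leaves fewer samples.

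The median S phase change minus the mitosis change was 0.36 by edgeR for ERRKO_PBS against WT_PBS and 0.42 with a pseudocount of 0.1 and 0.47 by edgeR for ERRKO_CL against WT_CL. The WT agonist comparison gave -0.53 at a mean RPKM of at least 2. The ERRKO agonist comparison gave 0.39 with a pseudocount of 0.1, 0.57 by edgeR and -0.15, reversed, at a mean RPKM of at least 2. For the interaction it was 0.51 by edgeR. With libraries left out it ranged over 0.07 to 0.24, 0.12 to 0.39, -0.20 to -0.09, 0.04 to 0.21 and -0.13 to 0.17 for the 5 comparisons in the order of the plot of changes by class.

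On the deposited scale the sign turned for Pcna (0.19) and Rrm1 (0.18), called without it, and for Mcm2 (0.46) and Rpa1 (0.36), called there, in ERRKO_PBS against WT_PBS. It turned for Mcm3 (0.37), Pcna (0.46), Ube2c (0.027), Pold3 (0.54) and Cdk6 (0.41) in ERRKO_CL against WT_CL, and for Ccnd3 (-0.28) in WT_CL against WT_PBS. Replicate numbers were not used to pair the samples in the main test. Of 18 same-numbered pairs, 7 had a correlation of deviations over 0.1 (-0.389 to 0.454). Differently numbered pairs were not set beside them, so these values cannot decide whether the numbers pair samples. With the replicate block 4 calls among members were lost and 1 was gained. Low read numbers, such as 5 to 15 for Tk1 in ERRKO_CL, limit precision.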
